A study of Mus musculus with 21 samples.

Results

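The 38 genes described here are cell cycle and proliferation genes of the mouse. They were taken by symbol from a list of G1 cyclins and cyclin-dependent kinase (CDK) inhibitors, DNA replication genes and genes of S phase, G2 and mitosis. The rule used no measured value, but the list was drawn up with earlier results of these data known. All 38 symbols were found among the 55416 gene IDs of the count table, and all 38 passed the filter on low counts, which left 19854 genes. RNA came from brains of mice at postnatal day 57, in a model of cerebral cavernous malformation, a disease of brain vessels in which the study looked at reactive astrocytes at both oxygen levels. KO mice carried the Slco1c1-iCreERT2 transgene, Pdcd10fl/fl alleles and the Aldh1l1-EGFP/Rpl10a reporter. Flox mice carried, by their labels, the same Pdcd10fl/fl alleles and reporter without the transgene. Hypoxia was 7 days at 12% oxygen and normoxia was 21% oxygen. Counts were used of 7 KO hypoxia libraries, 4 Flox hypoxia libraries, 4 KO normoxia libraries and 4 Flox normoxia libraries. The hypoxic Flox libraries carry the numbers 3 to 6, and numbers 1 and 2 are not analysed here.

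Several features of the model limit the comparisons. The Slco1c1 promoter drives the recombinase in brain endothelium, while the reporter marks astrocytes. Recombination was induced with 50 µg of 4-hydroxytamoxifen on postnatal day 1. Cre-carrying mice that were not injected also served as controls in the study, and which samples they were is not stated, so genotype and injection cannot be fully told apart. The design text describes purification of tagged astrocyte ribosomes, whereas the extraction protocol given for each sample speaks of brain homogenised in TRIzol. Fewer cells of a type, less RNA per cell and, if ribosomes were purified, a different purity cannot be told apart in these libraries. The labels number the libraries as replicates without saying that each came from its own animal. The p-values therefore cover the spread among these libraries, which may be technical.

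Cells leave G1 when D-type cyclins with CDK4 or CDK6, and then E-type cyclins with CDK2, phosphorylate the retinoblastoma protein and free E2F factors, which turn on genes of DNA replication. CDK inhibitors of the Cip/Kip and INK4 families hold these kinases back. Later genes of G2 and mitosis are kept off in resting cells by the DREAM complex and are turned on by B-MYB and FOXM1. In the adult brain most neurons are postmitotic, and oligodendrocyte precursors, microglia and restricted neural progenitors are among the cells known to divide.

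Libraries held 45399320 to 65261791 counts. Levels below are in CPM, counts relative to each library's TMM-scaled total, except where genes are compared with each other per length (RPKM). Astrocyte markers led the cell type lists, with summed levels of 36510 to 61460 CPM. The 6 T cell markers were at the low end, with sums of 4.62 to 6.91 CPM. Of these, Cd3d, Cd3g and Cd8a had 0 to 4 counts per library and Cd4 had 38 to 138. Cd3e had 0 to 5 counts in KO libraries and 6 to 30 in Flox libraries. Pdcd10 itself measured 6.98 to 12.2 CPM in KO hypoxia and 24.6 to 30.7 CPM in Flox hypoxia, and 7.74 to 10.3 CPM in KO normoxia and 19.6 to 23.5 CPM in Flox normoxia, without overlap between KO and Flox libraries. The 8 endothelial markers summed to 12.3 to 62.1 CPM over all libraries. In which cells Pdcd10 RNA was lower was not tested. KO hypoxia libraries 1, 2 and 3 stood apart. Their 13 mitochondrially encoded genes summed to 395 to 649 CPM, against 29.2 to 58.2 CPM in KO hypoxia libraries 4 to 7. The same sum was 57.8 to 192 CPM in KO normoxia, 23.6 to 32.5 in Flox normoxia and 27.9 to 51.9 in Flox hypoxia. In 5 libraries the Y-linked gene Ddx3y was at most 3.24 CPM (KO hypoxia 6 and 7, Flox hypoxia 6, Flox normoxia 3 and 4) and in the others at least 49.4 CPM, although all samples carry the tag male. Where leaving out KO hypoxia 1, 2 and 3, or adding low Ddx3y as a covariate, changes the call of a member, the value is given beside it.

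The members spanned a wide range of levels, and the median was lowest for the genes of mitosis and the phases around it. Per length, the highest was Cdkn1b, which encodes the CDK inhibitor p27, with a mean of 34.6 ± 4.36 RPKM (SD over the 19 libraries). Pcna, the sliding clamp of DNA polymerases, followed with 27.5 ± 4.12 RPKM, and the D-type cyclin Ccnd2 with 22.4 ± 5.10 RPKM. Over libraries, Cdkn1b ranged from 28.5 to 42.9 RPKM, Pcna from 21.6 to 36.7 and Ccnd2 from 15.6 to 30.5, so that these neighbours in the order overlapped. The lowest was the centromere protein gene Cenpf with 0.0448 ± 0.0146 RPKM. The median member had 8.77 RPKM among the 9 G1 cyclins, CDK inhibitors and E2f1, 3.13 RPKM among the 10 replication genes, and 0.351 RPKM among the 19 genes of S phase, G2 and mitosis. Of those 19, the highest mean was 1.18 RPKM, of the spindle kinase gene Aurka.

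Depth limited the mitotic genes. The kinetochore kinase gene Bub1 had 5 to 45 counts per library, the mitotic cyclin gene Ccnb1 9 to 61, the kinetochore motor gene Cenpe 11 to 50, the survivin gene Birc5 12 to 52 and the kinase gene Aurkb 13 to 92. Counts were 21 to 78 for Cenpf, 22 to 55 for the cyclin gene Ccnb2, 25 to 69 for the kinase gene Plk1 and 31 to 89 for the checkpoint gene Bub1b. Mki67, the gene of the proliferation antigen Ki-67, had 71 to 138 counts in libraries of at least 45399320 counts. None of the 38 members was at 0 in any library.

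**Figure D1:**
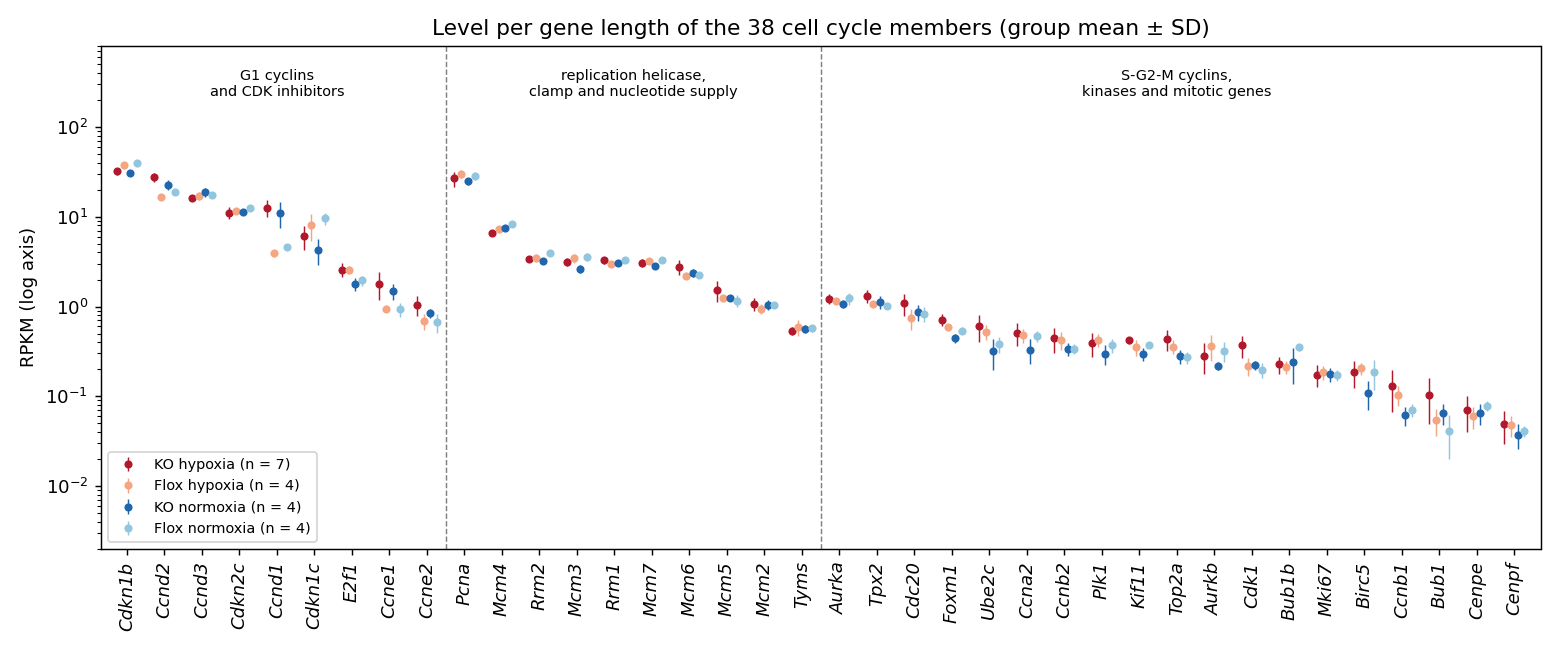
Mean level of each of the 38 members in RPKM on a log axis, 1 point per group with its SD as a bar (n = 7 in KO hypoxia and 4 in each other group), with members ordered by mean level within their role. The G1 genes have a median member of 8.77 RPKM and the genes of S phase, G2 and mitosis 0.351 RPKM, and the spread between groups within a gene is small beside the range between genes.

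Promoter windows of RefSeq (build GRCm38.p6, 250 bases before to 50 bases after each annotated start) were found for 29 of the 38 members, with 32 windows. The counts themselves were made on GRCm39, so coordinates are those of the sequence table alone. Both strands were searched for 3 E2F forms, namely TTCGCGC and then TTGGCGC and then TTCCCGC, for the cell cycle homology region TTTGAA (CHR), which is the core bound by DREAM and B-MYB, and for CCAAT, the core bound by NF-Y. The E2F forms can overlap each other on opposite strands. Forms of CHR and CCAAT together stood in 12 of the 32 windows (37.5%), against 6.95% of all 32851 windows. CCAAT alone stood in 81.2% of member windows against 37.4% of all, CHR in 37.5% against 17.9%, and any E2F form in 31.2% against 8.07%. The pair CHR and CCAAT divided the members by role, with 11 of 15 windows of genes of S phase, G2 and mitosis, 1 of 10 of replication genes and 0 of 7 of G1 genes. E2F forms stood in 3 of 15, 6 of 10 and 1 of 7 windows of these roles in the same order. These are matches of letters and show neither binding nor regulation.

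Shown next are the 150 bases just before the annotated start of 3 members that were higher in hypoxic than in normoxic KO libraries (Cdk1 at chr10:69352913-69353062, minus strand; Ube2c at chr2:164769779-164769928, plus strand; Kif11 at chr19:37376232-37376381, plus strand), and of a replication gene that passed no test (Mcm6 at chr1:128359706-128359855, minus strand). Each is read 5′ to 3′ on the gene's strand. Capitals mark the searched forms on either strand, so CCAAT also appears as ATTGG and TTTGAA as TTCAAA, and in Mcm6 each long capital run holds a pair of overlapping E2F forms.
Cdk1: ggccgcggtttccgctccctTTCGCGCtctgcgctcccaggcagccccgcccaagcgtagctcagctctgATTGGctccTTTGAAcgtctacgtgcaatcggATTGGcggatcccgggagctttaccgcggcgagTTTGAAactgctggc
Ube2c: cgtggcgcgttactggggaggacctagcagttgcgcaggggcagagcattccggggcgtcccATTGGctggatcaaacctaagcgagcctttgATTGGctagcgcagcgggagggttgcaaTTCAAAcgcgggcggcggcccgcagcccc
Kif11: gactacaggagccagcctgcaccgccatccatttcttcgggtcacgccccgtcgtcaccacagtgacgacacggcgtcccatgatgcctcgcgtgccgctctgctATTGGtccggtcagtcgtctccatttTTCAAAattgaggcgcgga
Mcm6: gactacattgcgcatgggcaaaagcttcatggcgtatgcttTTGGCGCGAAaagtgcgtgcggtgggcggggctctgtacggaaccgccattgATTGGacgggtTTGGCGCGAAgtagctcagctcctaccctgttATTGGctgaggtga
The 3 mitotic promoters shown share a CCAAT core upstream of a CHR core near the start, and that of Mcm6 carries E2F and CCAAT forms with no CHR. These genes were chosen for display, and their calls were lost in some fits, as given below. CHR and CCAAT also stood together in windows of uncalled members, such as Mki67, Plk1 and Top2a. The windows of Bub1, Ccnb1 and Cenpe had no CHR. A link between these motifs and the changes was not tested.

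Few members changed, in shares somewhat below those of all genes between genotypes and above that of all genes between oxygen levels in KO libraries. A gene was called at an edgeR quasi-likelihood adjusted p under 0.05 over all 19854 genes. In KO against Flox libraries in hypoxia 6 members were called (15.8% of 38), 4 higher and 2 lower, where 19.7% of all genes tested were called, 10.4% higher and 9.37% lower. In normoxia 4 members were called in KO against Flox libraries (10.5%), 1 higher and 3 lower, where 12.2% of all genes were called, 6.9% higher and 5.27% lower. In KO libraries 7 members were called between hypoxia and normoxia (18.4%), 5 higher and 2 lower, against 12.5% of all genes, 4.76% higher and 7.77% lower. Between hypoxia and normoxia in Flox libraries 0 members were called, against 0.0856% of all genes, 0.00504% higher and 0.0806% lower, and for the interaction of genotype and oxygen 0 were called, against 0.0101%. The median member had a log2 fold change of 0.02 in KO against Flox hypoxia, -0.11 in KO against Flox normoxia and 0.16 in KO hypoxia against KO normoxia. The same medians over all genes were 0.01, -0.01 and 0.02. In all, 13 members were called in at least 1 comparison and 25 in none. Groups that did not overlap, whether called or not, were seen for 4 members in KO against Flox hypoxia (3 higher, 1 lower; 11.9% of all genes) and for 10 in KO against Flox normoxia (3 higher, 7 lower; 19.7% of all genes). They were seen for 3 members in KO hypoxia against KO normoxia (1 higher, 2 lower; 7.72% of all genes) and for 4 in Flox hypoxia against Flox normoxia (1 higher, 3 lower; 9.03% of all genes). Comparisons that share a group share its libraries.

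**Figure D2:**
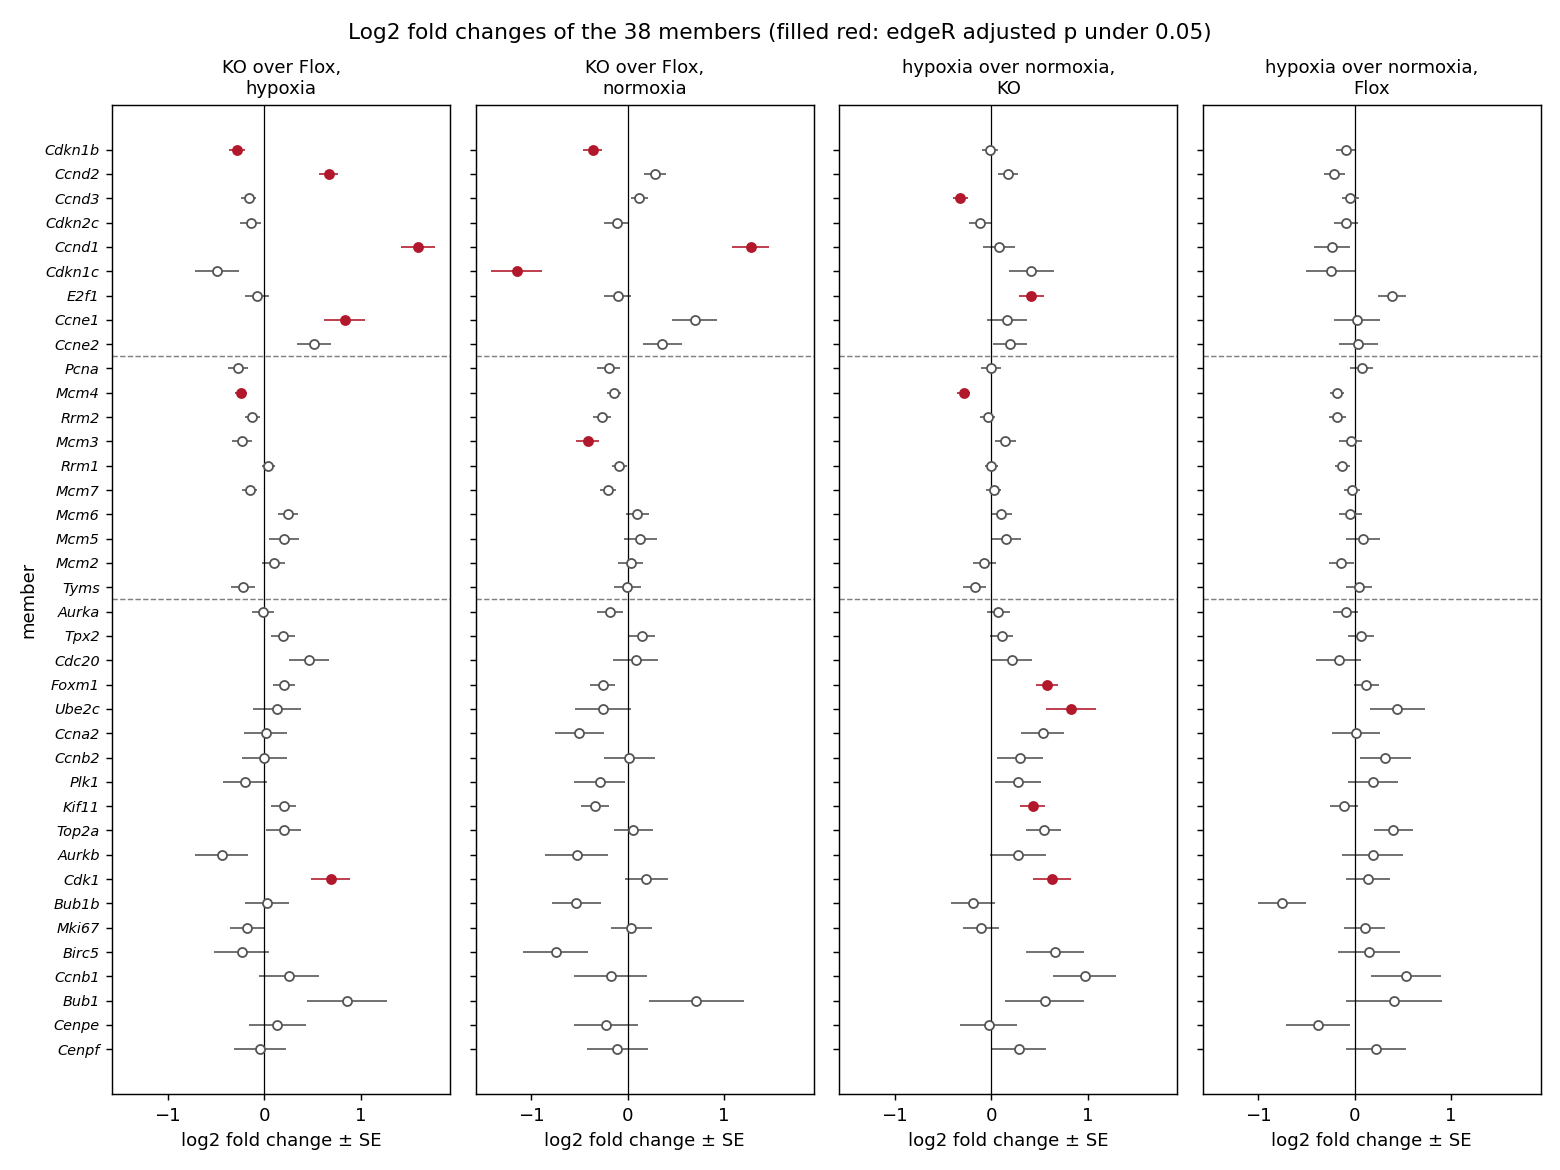
Log2 fold changes of the 38 members with their standard errors in the 4 pairwise comparisons, KO over Flox and hypoxia over normoxia, with called members (edgeR adjusted p under 0.05) marked. Ccnd1 lies farthest to the right among called members in both KO against Flox panels, at 1.59 in hypoxia and 1.27 in normoxia, and no member is called between hypoxia and normoxia in Flox libraries.

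The G1 cyclins carried the clearest differences between genotypes. Ccnd1 encodes cyclin D1, which carries growth factor signals to CDK4 and CDK6. It measured 40.3 CPM at the lowest, 53.3 at the median and 77.3 at the highest in the 7 KO hypoxia libraries, against 19.2, 17.5, 18 and 20.8 CPM in the Flox hypoxia libraries. In normoxia it had 52.8, 33.8, 73.7 and 54.8 CPM in KO libraries, against 23.0, 24.3, 21.0 and 20.8 CPM in Flox libraries. Every KO library lay above every Flox library, in hypoxia and in normoxia alike. Ccnd1 rose in KO by 1.59 ± 0.18 on the log2 scale in hypoxia (edgeR adjusted p = 1.9e-05) and by 1.27 ± 0.19 in normoxia (edgeR adjusted p = 0.000562). No library, when left out, ended either call, with log2 fold changes of 1.5 to 1.66 in hypoxia and 1.08 to 1.44 in normoxia. Between hypoxia and normoxia Ccnd1 differed by 0.08 in KO libraries and -0.24 in Flox libraries (edgeR adjusted p = 0.802 and 0.78).

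Ccnd2, the cyclin D2 gene, had 171 CPM at the lowest, 258 at the median and 276 at the highest in KO hypoxia, against 156, 158, 152 and 164 CPM in Flox hypoxia. The 7 KO values lay above all 4 Flox values, and KO hypoxia 1 with 171 CPM was the only KO library below 249 CPM. Ccnd2 rose in KO hypoxia by 0.67 ± 0.10 on the log2 scale (edgeR adjusted p = 0.000298), a call that no left-out library ended. In normoxia it had 234, 203, 248 and 201 CPM in KO and 178, 187, 187 and 177 CPM in Flox libraries. These groups did not overlap either, but the log2 fold change of 0.28 ± 0.11 was not called (edgeR adjusted p = 0.105). Without KO hypoxia library 1, whose spread enters the shared fit, it was called at 0.28 (edgeR adjusted p = 0.0146), and without KO hypoxia 1, 2 and 3 at 0.29 (edgeR adjusted p = 0.0101). Between KO hypoxia and KO normoxia Ccnd2 differed by 0.18 and was not called (edgeR adjusted p = 0.265), whereas without KO hypoxia 1 it was called at 0.25 (edgeR adjusted p = 0.0224) and without KO hypoxia 1, 2 and 3 at 0.26 (edgeR adjusted p = 0.031). The difference between these 2 genotype effects, the interaction, was 0.38 with an unadjusted p of 0.0192 and an edgeR adjusted p of 0.36.

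Ccnd3, the cyclin D3 gene, was called for oxygen in KO libraries and not for genotype, where its log2 differences were -0.16 in hypoxia and 0.12 in normoxia (edgeR adjusted p = 0.152 and 0.41). It measured 122 CPM at the lowest, 135 at the median and 157 at the highest in KO hypoxia, against 161, 161, 191 and 170 CPM in KO normoxia. All 7 hypoxic values lay below the 4 normoxic ones. Ccnd3 fell by 0.32 ± 0.08 on the log2 scale (edgeR adjusted p = 0.0136). Without KO hypoxia libraries 1, 2 and 3 the log2 fold change was -0.25 and no longer called (edgeR adjusted p = 0.0651). With the replicate number as a block the call was also lost (edgeR adjusted p = 0.17). The 4 Flox hypoxia libraries had 162, 159, 160 and 129 CPM and the 4 Flox normoxia libraries 153, 158, 157 and 160 CPM, a log2 difference of -0.04 (edgeR adjusted p = 0.938).

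Ccne1 encodes cyclin E1, the partner of CDK2 at entry to S phase. In KO hypoxia it measured 2.92 CPM at the lowest, 4.90 at the median and 6.64 at the highest, against 2.74, 2.26, 2.63 and 2.66 CPM in Flox hypoxia. The groups did not overlap, but KO libraries 4, 5 and 7 with 3.37, 2.92 and 3.20 CPM lay close to the Flox values. Ccne1 rose by 0.83 ± 0.21 on the log2 scale in KO hypoxia (edgeR adjusted p = 0.0116). Without KO hypoxia libraries 1, 2 and 3 its log2 fold change was 0.52 and the call was lost (edgeR adjusted p = 0.116), and the value was more than 1.5 times smaller. In normoxia Ccne1 had 4.30, 3, 4.76 and 4.32 CPM in KO and 2.11, 2.26, 3.16 and 2.60 CPM in Flox libraries, and KO library 2 lay below Flox library 3. That log2 difference of 0.69 ± 0.23 was not called (edgeR adjusted p = 0.0591), and without KO normoxia library 2 it was 0.82 and called (edgeR adjusted p = 0.0297). It was also called without KO hypoxia 1, 2 and 3, at 0.70 (edgeR adjusted p = 0.0228). Its paralog Ccne2 gave 0.51 ± 0.18 in hypoxia and 0.36 in normoxia, neither called (edgeR adjusted p = 0.0508 and 0.258). With low Ddx3y as a covariate, Ccne2 in hypoxia was called at 0.54 (edgeR adjusted p = 0.0327). Ccne2 overlaps a neighbouring gene, Ints8, in the RefSeq annotation of GRCm38.p6.

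**Figure D3:**
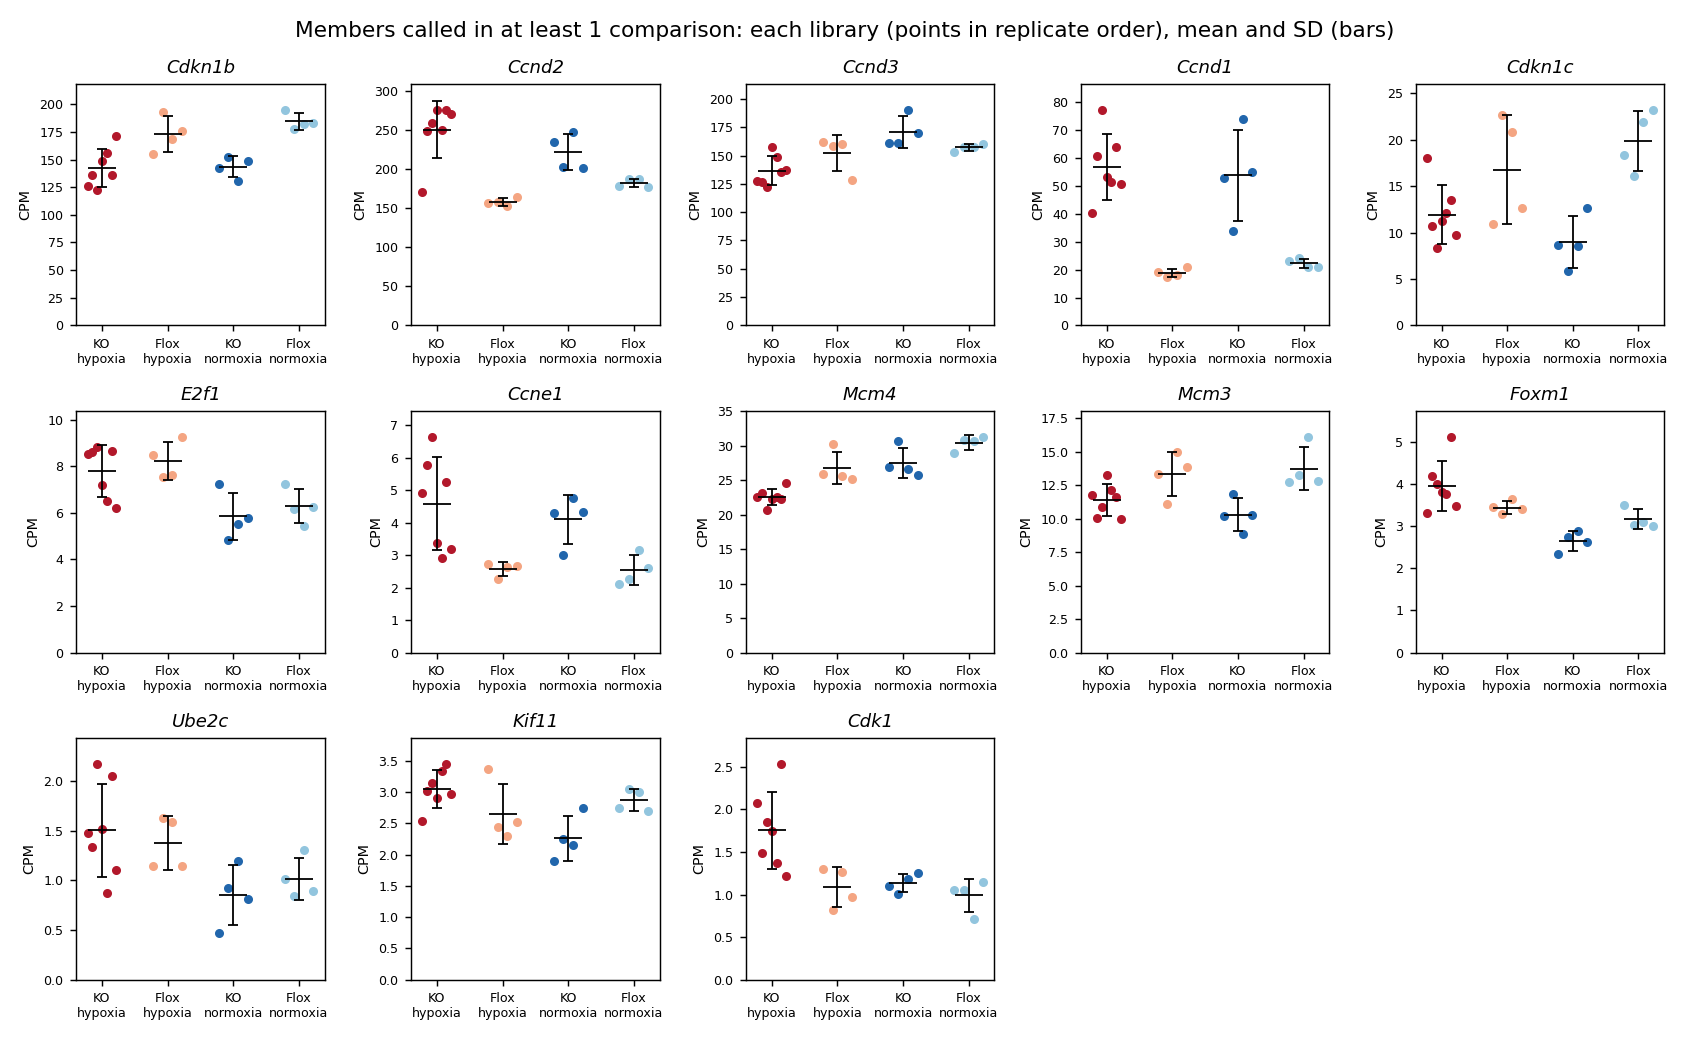
Level in CPM of each of the 13 called members in every library, with 1 panel per member and 1 column of points per group, and bars for the mean and SD. Ccnd1 lies at 33.8 to 77.3 CPM in KO libraries and 17.5 to 24.3 CPM in Flox libraries, while the groups of Cdk1, Ube2c and E2f1 overlap.

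Of the 3 CDK inhibitors, Cdkn1b was lower in KO libraries in hypoxia and normoxia and Cdkn1c in normoxia. Cdkn1b measured 142, 152, 130 and 148 CPM in KO normoxia, against 195, 177, 182 and 183 CPM in Flox normoxia, with no overlap. It fell by 0.36 ± 0.10 on the log2 scale (edgeR adjusted p = 0.0199), and the call was lost without KO normoxia 3 or without Flox normoxia 1, at log2 fold changes of -0.34 to -0.32, and with low Ddx3y as a covariate, at -0.33 (edgeR adjusted p = 0.057). In hypoxia it had 123 CPM at the lowest, 136 at the median and 171 at the highest in KO, against 155, 193, 169 and 176 CPM in Flox libraries. Here KO hypoxia 5 and 7 reached into the Flox range. Cdkn1b fell by 0.28 ± 0.08 (edgeR adjusted p = 0.0251), and without KO hypoxia 3, Flox hypoxia 4, 5 or 6 it was no longer called, at -0.29 to -0.23. Without KO hypoxia 1, 2 and 3 together the log2 fold change was -0.18 (edgeR adjusted p = 0.175), which is more than 1.5 times smaller.

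Cdkn1c, an imprinted gene that encodes the inhibitor p57, had 8.66, 5.92, 8.56 and 12.7 CPM in KO normoxia, against 18.3, 16.1, 21.9 and 23.3 CPM in Flox normoxia. Every KO value lay below every Flox value. Cdkn1c fell in KO normoxia by 1.15 ± 0.26 on the log2 scale (edgeR adjusted p = 0.00979), and no left-out library ended the call. In hypoxia it had 8.31 CPM at the lowest, 11.2 at the median and 18 at the highest in KO, against 10.9, 22.7, 20.9 and 12.7 CPM in Flox libraries. Those groups overlapped, and the log2 difference of -0.49 ± 0.23 was not called (edgeR adjusted p = 0.13). The genotype effects at the 2 oxygen levels differed by 0.66, which was not called (edgeR adjusted p = 0.485). Cdkn2c, which encodes the INK4 inhibitor p18, averaged 28.9 CPM in KO hypoxia, 31.9 in Flox hypoxia, 31.3 in KO normoxia and 34.0 in Flox normoxia and was called in no comparison.

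E2f1 encodes a transcription factor of the G1 to S transition. It measured 6.22 CPM at the lowest, 8.53 at the median and 8.81 at the highest in KO hypoxia, against 7.26, 4.83, 5.54 and 5.76 CPM in KO normoxia. KO hypoxia 4, 5 and 7 lay within the normoxic range. E2f1 rose by 0.42 ± 0.13 on the log2 scale (edgeR adjusted p = 0.0405). Flox libraries gave 8.48, 7.54, 7.63 and 9.27 CPM in hypoxia and 7.23, 6.19, 5.45 and 6.27 CPM in normoxia, without overlap, and a log2 difference of 0.39 ± 0.14 that was not called (unadjusted p = 0.0136, edgeR adjusted p = 0.395). The interaction was 0.03 (edgeR adjusted p = 0.977). The KO call was lost when KO normoxia 2, 3 or 4, Flox normoxia 2 or 4, or KO hypoxia 1, 2, 3 or 6 was left out, at 0.33 to 0.42, and without KO hypoxia 1, 2 and 3 together it was 0.28 (edgeR adjusted p = 0.228). E2f1 overlaps Necab3 in the RefSeq annotation of GRCm38.p6.

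Of the 10 replication genes, Mcm4 and Mcm3 were called. The 6 MCM genes encode the subunits of the helicase that unwinds origins. Mcm4 had 20.8 CPM at the lowest, 22.5 at the median and 24.6 at the highest in KO hypoxia, against 25.9, 30.2, 25.7 and 25.2 CPM in Flox hypoxia and 27.0, 30.8, 26.6 and 25.7 CPM in KO normoxia. The KO hypoxia libraries lay below all libraries of both other groups. Mcm4 fell in KO hypoxia by 0.24 ± 0.07 on the log2 scale against Flox hypoxia (edgeR adjusted p = 0.0156) and by 0.29 ± 0.07 against KO normoxia (edgeR adjusted p = 0.0109). The genotype call was lost without Flox hypoxia 4, at -0.18 (edgeR adjusted p = 0.0827), without KO hypoxia 1, 2 and 3, at -0.22 (edgeR adjusted p = 0.0766), and with the replicate numbers 3 to 6 as a block, at -0.28 (edgeR adjusted p = 0.058). No left-out library ended the oxygen call, but it was lost with the replicate number as a block (edgeR adjusted p = 0.182).

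Mcm3 measured 10.2, 11.8, 8.83 and 10.3 CPM in KO normoxia, against 12.7, 13.3, 16.1 and 12.8 CPM in Flox normoxia. The groups did not overlap, and Flox library 3 was the highest. Mcm3 fell by 0.42 ± 0.12 on the log2 scale (edgeR adjusted p = 0.0293), a call lost without KO normoxia 1, 3 or 4 or Flox normoxia 2 or 3, at -0.43 to -0.33, and with low Ddx3y as a covariate, at -0.40 (edgeR adjusted p = 0.0682). In hypoxia its log2 difference was -0.23 (edgeR adjusted p = 0.129). The other 8 replication genes were called in no comparison in the fit of all libraries, and Pcna and Rrm2 were called under some alternatives. They were the helicase genes Mcm2, Mcm5, Mcm6 and Mcm7, the clamp gene Pcna, the ribonucleotide reductase genes Rrm1 and Rrm2, and the thymidylate synthase gene Tyms. Their log2 fold changes ran between -0.27 and 0.25 in the KO against Flox comparisons. Pcna averaged 61.4 CPM in KO hypoxia and 74.0 in Flox hypoxia, a log2 difference of -0.27 (edgeR adjusted p = 0.0734), and it was called with the replicate block, at -0.34 (edgeR adjusted p = 0.0329), without KO hypoxia 1, at -0.34 (edgeR adjusted p = 0.017), and without KO hypoxia 1, 2 and 3, at -0.36 (edgeR adjusted p = 0.0302). Rrm2 averaged 9.23 CPM in KO normoxia and 11.1 in Flox normoxia, a log2 difference of -0.27 (edgeR adjusted p = 0.0591). It was called without KO hypoxia 1, 2 and 3, at -0.26 (edgeR adjusted p = 0.0391), without KO normoxia 2, at -0.31 (edgeR adjusted p = 0.0381), and by DESeq2, at -0.26 (DESeq2 adjusted p = 0.0291). Pcna and Tyms have pseudogene copies that could share reads.

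Among the 19 genes of S phase, G2 and mitosis, 4 rose in hypoxic KO libraries relative to normoxic KO libraries and 0 fell, which is 21.1% of them, where 4.76% of all genes were higher and 7.77% lower. The 19 genes summed to 28.4 CPM at the lowest, 33.5 at the median and 45.2 at the highest in KO hypoxia, and to 28.1 to 33.4 CPM in Flox hypoxia, 25.1 to 30.6 in KO normoxia and 28.6 to 31.6 in Flox normoxia. KO hypoxia 6 was highest and KO hypoxia 3 next with 39.2 CPM, and KO hypoxia 5 and 7 lay within the range of normoxic KO libraries. Of the 19, 16 had a positive log2 fold change in KO hypoxia against KO normoxia, with a median of 0.30, and 14 had one in Flox hypoxia against Flox normoxia, with a median of 0.14. Of all 19854 genes, 10566 were positive in KO libraries and 9705 in Flox libraries.

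**Figure D4:**
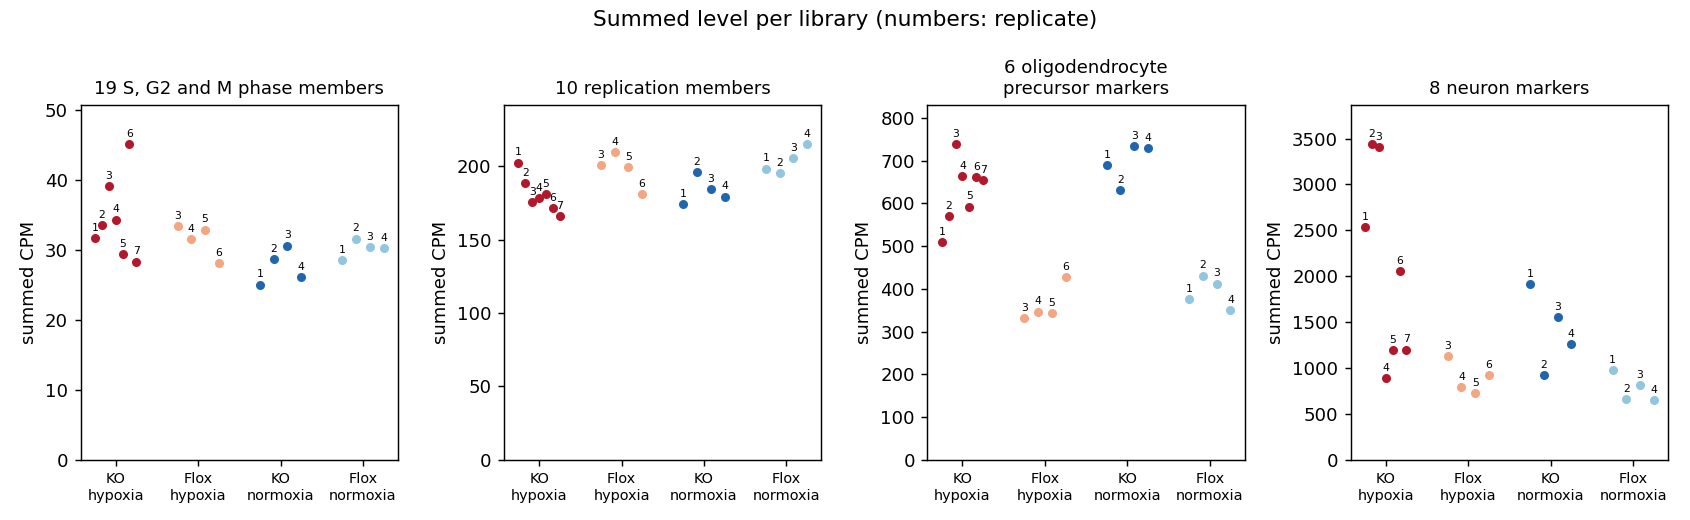
Summed CPM of the 19 members of S phase, G2 and mitosis, the 10 replication members, 6 oligodendrocyte precursor markers and 8 neuron markers in every library, by group, with replicate numbers above the points. The mitotic sum of KO hypoxia libraries spreads from 28.4 to 45.2 CPM, while the Flox hypoxia libraries lie between 28.1 and 33.4 CPM. The precursor sums of all KO libraries lie above those of all Flox libraries. Olig1 makes up most of that sum, with a mean of 482 of 627 CPM in KO hypoxia and 273 of 362 CPM in Flox hypoxia.

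Foxm1 encodes the forkhead factor that turns on G2 and mitotic genes. It measured 3.30 CPM at the lowest, 3.80 at the median and 5.11 at the highest in KO hypoxia, against 2.33, 2.73, 2.89 and 2.61 CPM in KO normoxia. All 7 hypoxic values lay above the 4 normoxic ones. Foxm1 rose by 0.58 ± 0.12 on the log2 scale (edgeR adjusted p = 0.00573), in every fit that left out a library and at 0.60 without KO hypoxia 1, 2 and 3 (edgeR adjusted p = 0.0164). With the replicate block the call was lost (edgeR adjusted p = 0.135). The Flox libraries had 3.44, 3.28, 3.63 and 3.39 CPM in hypoxia and 3.51, 3.02, 3.09 and 3 CPM in normoxia, a log2 difference of 0.12 (edgeR adjusted p = 0.85). The interaction of 0.46 ± 0.17 had an unadjusted p of 0.0147 and an edgeR adjusted p of 0.344, so the oxygen effects in KO and Flox libraries were not shown to differ. Normoxic KO libraries had lower Foxm1 than normoxic Flox libraries without overlap, at a log2 difference of -0.26 that was not called (edgeR adjusted p = 0.194). Foxm1 overlaps Tex52 in that annotation.

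Cdk1, the kinase gene of entry into mitosis, measured 1.22 CPM at the lowest, 1.74 at the median and 2.53 at the highest in KO hypoxia. It had 1.30, 0.824, 1.26 and 0.967 CPM in Flox hypoxia and 1.10, 1.01, 1.18 and 1.25 CPM in KO normoxia. KO hypoxia 7, the lowest of its group, lay within both other groups and KO hypoxia 6 was the highest. Cdk1 rose in KO hypoxia by 0.69 ± 0.20 on the log2 scale against Flox hypoxia (edgeR adjusted p = 0.0229) and by 0.63 ± 0.20 against KO normoxia (edgeR adjusted p = 0.0451). The genotype call was lost without Flox hypoxia 4 or 6, at 0.58 and 0.63, with the replicate block, at 0.77 (edgeR adjusted p = 0.0801), and without KO hypoxia 1, 2 and 3, at 0.66 (edgeR adjusted p = 0.096). The oxygen call was lost in 13 of 19 fits that left out a library, at 0.52 to 0.68, and these libraries were all 4 of KO normoxia, Flox normoxia 1, 2 and 4, KO hypoxia 1, 3, 4 and 6, and Flox hypoxia 5 and 6.

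Kif11, the gene of a motor that separates spindle poles, had 2.53 CPM at the lowest, 3.01 at the median and 3.45 at the highest in KO hypoxia, against 1.90, 2.25, 2.15 and 2.75 CPM in KO normoxia. KO hypoxia 1 was the only hypoxic library below the highest normoxic one. Kif11 rose by 0.43 ± 0.13 on the log2 scale (edgeR adjusted p = 0.0351), and the call was lost without KO normoxia 1, 2 or 3 or KO hypoxia 2, 3, 5 or 6, at 0.35 to 0.43. In Flox libraries it had 3.36, 2.44, 2.30 and 2.52 CPM in hypoxia and 2.74, 3.04, 3 and 2.69 CPM in normoxia, a log2 difference of -0.11 (edgeR adjusted p = 0.896). The interaction was 0.54 ± 0.19 (unadjusted p = 0.0108, edgeR adjusted p = 0.337).

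Ube2c, the gene of the ubiquitin-conjugating enzyme of the anaphase-promoting complex, rested on 26 to 130 counts. It measured 0.873 CPM at the lowest, 1.47 at the median and 2.17 at the highest in KO hypoxia, against 0.469, 0.921, 1.20 and 0.815 CPM in KO normoxia. KO hypoxia 5 and 7 lay within the normoxic range. Ube2c rose by 0.82 ± 0.26 on the log2 scale (edgeR adjusted p = 0.0453), and the call was lost in 15 of 19 fits that left out a library, at 0.62 to 0.87. It held only without KO normoxia 3, Flox normoxia 3, KO hypoxia 5 or KO hypoxia 7. Without KO hypoxia 1, 2 and 3 together, Cdk1, Kif11 and Ube2c had log2 fold changes of 0.59, 0.47 and 0.70 and none was called (edgeR adjusted p = 0.126, 0.0601 and 0.145). With low Ddx3y as a covariate, Cdk1 at 0.64 and Ube2c at 0.81 were not called (edgeR adjusted p = 0.0537 and 0.0598).

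The other 15 genes of this role were called by edgeR in no comparison with all libraries. Mki67 averaged 1.68 ± 0.43 CPM in KO hypoxia (SD, n = 7), 1.90 ± 0.35 in Flox hypoxia (n = 4), 1.82 ± 0.27 in KO normoxia (n = 4) and 1.78 ± 0.28 in Flox normoxia (n = 4). Its log2 fold change was -0.18 in KO against Flox hypoxia and 0.04 in KO against Flox normoxia (edgeR adjusted p = 0.534 and 0.93). Top2a, the topoisomerase gene of dividing cells, averaged 3.77 CPM in KO hypoxia and 2.59 in KO normoxia, a log2 difference of 0.54 that was not called by edgeR (adjusted p = 0.0554) and was called by DESeq2 (adjusted p = 0.0262). The same difference in Flox libraries was 0.40 (edgeR adjusted p = 0.585). Ccnb1 gave 0.97 in KO hypoxia against KO normoxia (edgeR adjusted p = 0.0602, DESeq2 adjusted p = 0.037) and 0.53 in the Flox libraries (edgeR adjusted p = 0.72). Bub1 gave 0.86 in KO against Flox hypoxia and 0.71 in normoxia, on 5 to 45 counts, and neither was called (edgeR adjusted p = 0.153 and 0.371). In KO against Flox normoxia, 12 of the 19 genes had a negative log2 difference, among them Birc5 at -0.75, Aurkb and Bub1b at -0.53 and the cyclin A2 gene Ccna2 at -0.50, none of them called. Ccnb1 and Ccnb2 have pseudogene copies, and Aurka, Cdc20 and Ccna2 overlap a neighbouring gene, so their counts may include other reads.

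No member was called between hypoxia and normoxia in Flox libraries. Of the 38, 3 had an unadjusted p under 0.05, and DESeq2 called 0. These were E2f1, described above, Mcm4 with a log2 difference of -0.19 and Bub1b with -0.75 (edgeR adjusted p = 0.454 and 0.346). Bub1b averaged 0.915 CPM in Flox hypoxia and 1.55 CPM in Flox normoxia, without overlap between the libraries, and 0.934 CPM in KO hypoxia and 1.07 CPM in KO normoxia. For the interaction, 4 members had an unadjusted p under 0.05, namely Kif11, Foxm1, Ccnd2 and Ccnd3, the last at -0.28 (edgeR adjusted p = 0.382), and DESeq2 called 0. Of the 19 genes of S phase, G2 and mitosis, 17 had a positive interaction term, with a median of 0.36, whereas 10610 of all 19854 genes were positive, with a median of 0.02.

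Other genes of the cycle, in 4 lists, were called at 3.70 to 50.0% per list in the KO against Flox comparisons, highest among the brakes on division. Of 12 tested brakes, 4 rose and 2 fell in KO against Flox hypoxia, and 3 rose and 1 fell in normoxia (50.0 and 33.3% of the list, against 19.7 and 12.2% of all genes). Cdkn1a, which encodes p21, a CDK inhibitor induced by p53, averaged 133 ± 26.3 CPM in KO hypoxia and 37.2 ± 25 CPM in Flox hypoxia, and 123 ± 50.4 CPM in KO normoxia and 24.8 ± 3.17 CPM in Flox normoxia. It rose by 1.84 ± 0.39 on the log2 scale in hypoxia and 2.31 ± 0.42 in normoxia (edgeR adjusted p = 0.00397 and 0.00273). The p53 target Ccng1 rose by 0.62 in hypoxia and 0.49 in normoxia (edgeR adjusted p = 0.000939 and 0.0145). Cdkn2b, an INK4 inhibitor gene, rose by 0.97 in normoxia (edgeR adjusted p = 0.0308), and Gadd45g, a stress gene that can restrain CDK1, fell by 0.82 in hypoxia (edgeR adjusted p = 0.00286). In KO normoxia the inhibitor genes went both ways, with Cdkn1a and Cdkn2b higher and Cdkn1b and Cdkn1c lower. In KO hypoxia against KO normoxia 0 of the 12 brakes were called.

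Of 26 tested G1 kinase, retinoblastoma, E2F and DREAM genes, 3 rose and 3 fell in KO against Flox hypoxia, 0 rose and 2 fell in normoxia, and 4 rose and 2 fell in KO hypoxia against KO normoxia. These are 23.1, 7.69 and 23.1% of the list, against 19.7, 12.2 and 12.5% of all genes. The CDK-activating phosphatase gene Cdc25b fell in KO by 0.53 in hypoxia and by 0.74 in normoxia (edgeR adjusted p = 0.00697 and 0.00326), and Skp2, whose product marks p27 for degradation, fell by 0.39 in normoxia (edgeR adjusted p = 0.0454). In hypoxia the DREAM subunit gene Lin52 fell by 0.32 and E2f2 rose by 0.71 (edgeR adjusted p = 0.01 and 0.0201). Hypoxic KO libraries had higher Lin37, E2f4 and Cdk4 than normoxic ones, by 0.35, 0.26 and 0.22 (edgeR adjusted p = 0.00611, 0.0111 and 0.0431). Of 27 replication genes outside the members, 0 rose and 3 fell in KO against Flox hypoxia, led by the helicase cofactor gene Cdc45 at -0.76 and the origin recognition gene Orc6 at -0.42 (edgeR adjusted p = 0.00207 and 0.00673), with the ligase gene Lig1 at -0.23 (edgeR adjusted p = 0.0476). In normoxia 0 rose and 1 fell, the histone mRNA binding gene Slbp at -0.34 (edgeR adjusted p = 0.00651). In KO hypoxia against KO normoxia 2 rose, Slbp by 0.33 and the dUTPase gene Dut by 0.42 (edgeR adjusted p = 0.00507 and 0.00573). The shares called of these replication genes were 11.1, 3.70 and 7.41%, each below that of all genes.

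Of 41 spindle, kinetochore, condensin and cytokinesis genes, 5 rose and 0 fell in KO hypoxia against KO normoxia, with a median log2 fold change of 0.30. These are 12.2% of the list, all higher, against 12.5% of all genes called, 4.76% higher and 7.77% lower. The 3 with the lowest adjusted p were the microtubule-binding genes Ckap2 and Ckap2l, at 1.02 and 0.82, and the kinase gene Pbk at 1.09 (edgeR adjusted p = 0.0122, 0.0269 and 0.0233). Ckap2 averaged 4.86 ± 0.90 CPM in KO hypoxia and 1.53 ± 0.21 in Flox hypoxia, and 2.40 ± 0.98 in KO normoxia and 1.27 ± 0.31 in Flox normoxia. It rose in KO by 1.67 in hypoxia and 0.92 in normoxia (edgeR adjusted p = 0.000241 and 0.0337). In KO against Flox hypoxia 2 rose and 2 fell (9.76%, against 19.7% of all genes), with the condensin gene Ncapd2 at -0.47 and the cytokinesis motor gene Kif20a at 0.62 (edgeR adjusted p = 0.000725 and 0.00721). In normoxia 1 rose and 1 fell (4.88%, against 12.2%), with the microtubule depolymerase gene Kif2c at -0.90 (edgeR adjusted p = 0.0303). No gene of these 4 lists was called in Flox hypoxia against Flox normoxia or for the interaction.

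Markers of other cell types moved with genotype and, in KO libraries, with oxygen. The 6 oligodendrocyte precursor markers summed to 509 to 739 CPM in KO hypoxia and 332 to 428 in Flox hypoxia, and to 631 to 735 CPM in KO normoxia and 350 to 431 in Flox normoxia. Of them 4 of 6 rose in hypoxia and 2 of 6 in normoxia, Olig1 and Olig2 in both, and their defining surface genes Pdgfra and Cspg4 were called in neither. The 9 microglial markers summed to 66.4 to 87.3 CPM in KO hypoxia and 39.4 to 53.0 in Flox hypoxia, and to 62.9 to 120 CPM in KO normoxia and 47.9 to 55.7 in Flox normoxia, with 6 of 9 higher at each oxygen level. The 8 endothelial markers summed to 17.6 to 29.0 CPM in KO hypoxia and 17.0 to 32.1 in Flox hypoxia, and to 27.1 to 62.1 CPM in KO normoxia and 12.3 to 29.9 in Flox normoxia, with 1 and 4 of 8 higher. Of the 7 mural cell markers 3 were higher in hypoxia and 6 in normoxia, and of the 8 neuronal markers 5 and 1. The neuronal markers summed to 892 to 3439 CPM in KO hypoxia and 729 to 1128 in Flox hypoxia, with KO hypoxia 2, 3, 1 and 6 the highest in that order.

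Of 9 neural progenitor and neuroblast markers, 2 rose and 3 fell in KO against Flox hypoxia and 1 rose and 4 fell in normoxia. Log2 fold changes ran from -3.68 (Eomes) to 1.68 in hypoxia and from -2.31 (Eomes) to 1.37 in normoxia. Eomes had 2 to 16 counts in KO hypoxia and 1 to 44 in KO normoxia. The 9 markers summed to 80.8 to 158 CPM in KO hypoxia and 80.1 to 111 in Flox hypoxia. In normoxia they summed to 67.6 to 130 CPM in KO and 77.5 to 98.7 in Flox libraries. Of 3 tested T cell markers, 1 fell and 0 rose in KO against Flox libraries in hypoxia, and likewise in normoxia. The 5 erythroid genes summed to 25.9 to 132 CPM in KO hypoxia and 4.63 to 6.16 in Flox hypoxia, and to 10.1 to 48.5 CPM in KO normoxia and 0.899 to 4.33 in Flox normoxia. KO normoxia 2, which had the lowest Ccnd1 and Ccne1 of its group, was also the lowest of its group in the summed endothelial, erythroid, microglial, neuronal, oligodendrocyte precursor, oligodendrocyte and mitochondrially encoded genes, and the highest in the summed astrocyte markers. It was not the lowest in the mural cell sum (295 CPM, lowest of the group 274) or the border macrophage sum (24.4, lowest 23.0). Nor was it the lowest in the neural progenitor sum (81.6, lowest 67.6) or the T cell sum (5.71, lowest 5.33). Of the 10 astrocyte markers 2 rose and 4 fell in KO against Flox hypoxia and 2 rose and 0 fell in normoxia, and they summed to 36510 to 53830 CPM in KO hypoxia and 51350 to 58350 CPM in Flox hypoxia. In KO hypoxia against KO normoxia, where the 4 mitotic genes rose, 3 of 10 astrocyte, 3 of 8 endothelial, 2 of 7 mural cell, 2 of 6 border macrophage and 1 of 6 oligodendrocyte precursor markers fell, and 1 of 9 neural progenitor markers rose. No microglial, neuronal, oligodendrocyte or erythroid marker was called in that comparison. The part of these cell types in the differences of Ccnd1, Ccnd2, Ccne1, Cdkn1b, Cdkn1c and the mitotic genes was not tested.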

How the data were processed

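Polyadenylated RNA of 19 mouse brain libraries was analysed. Libraries were made with a stranded mRNA kit, per the labels' protocols. Whole counts of reads per gene were deposited by the authors, with RPKM values (counts over the column total and 1 length per gene). HISAT2, edgeR and GRCm39 are named per the submitters' processing notes, with no versions, and the counter and its use of strand are not given in the sources used here. Of counts between 2 and 21, 65.9% were even, as when both mates of a pair are counted. Whether mates were counted so was not tested, and precision may be below what the totals imply.

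Genes were filtered with filterByExpr, scaled by TMM and tested in 1 edgeR 4.0.16 quasi-likelihood fit of all 4 groups (R 4.3.3, robust, Benjamini-Hochberg over 19854 genes). The code was tested on simulated data. RPKM values entered no test. Alternatives were RLE scaling, other filters, DESeq2 1.42.0, the compared groups alone, a replicate block and leaving out each library. In the block, a library whose number the other group lacks is fitted exactly and adds nothing to that comparison. This removes KO hypoxia 1, 2 and 7 for genotype in hypoxia, and KO hypoxia 5, 6 and 7 for oxygen in KO libraries. Added after seeing the data were a fit without KO hypoxia 1 to 3 and 1 with Ddx3y under 5 CPM as a covariate.

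All members called in any comparison are described per library, and up to 3 called genes of each other list, by adjusted p. Members and lists were chosen by name, with earlier results of these data known, so the choice is not independent of the data. Same-numbered KO and Flox hypoxia libraries deviated from their group means together (correlations 0.168 to 0.384, all above 0.1). No label pairs them. Correlations between differently numbered libraries were not computed for comparison, so pairing is not shown. The main fit used no pairs, and the replicate block was an alternative. No replicates were identical, and the closest were KO hypoxia 4 and 5 (median chi-square 1.76 per gene).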

Additional observations from a re-analysis of the deposited data

Results flagged for a closer look

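Each of the 38 members was examined in 4 groups for a library far from the others by Dixon's test, and 9 of 152 combinations stood out, where chance gives about 1 in 20. Ccnd2 was 171 CPM in KO hypoxia 1, with the other 6 libraries at 249 to 276. Cdc20 was 3.01 CPM in KO hypoxia 6, with the others at 1.60 to 2.07. Ccnd3 was 129 CPM in Flox hypoxia 6, with the others at 159 to 162. In Flox hypoxia 4, Mcm4 was 30.2 CPM and Aurka 3.30 CPM, with the others at 25.2 to 25.9 and at 2.85 to 2.92. Cdkn2c was 29.2 CPM in KO normoxia 2, with the others at 31.9 to 32.2. Ccnb1 was 0.171 CPM in KO normoxia 4, with the others at 0.290 to 0.307. Mcm3 was 16.1 CPM in Flox normoxia 3, with the others at 12.7 to 13.3. Foxm1 was 3.51 CPM in Flox normoxia 1, with the others at 3 to 3.09.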

How the results depend on the processing

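No called result reversed its direction under any alternative. The median log2 fold change of the members moved by less than 0.0975, but changed sign in 2 comparisons where it was near 0. That limit is the SD, over single libraries, of the median deviation of the members from their group means in log2 CPM. It is not the spread of the median fold change itself. In KO against Flox hypoxia it was 0.02, and -0.02 without KO hypoxia 6 and -0.0028 without Flox hypoxia 6. In Flox hypoxia against Flox normoxia it was 0.02, and -0.05 to -0.01 without Flox normoxia 1 or 2 or Flox hypoxia 3 or 5, -0.03 at a minimum of 1 CPM in 4 libraries, -0.02 with the replicate block and -0.01 with low Ddx3y as a covariate. RLE scaling moved the median of all genes by at most 0.0138. For KO against Flox in normoxia, 4 members were called, 2 to 6 when a library was left out (2 without KO normoxia 3), 7 without KO hypoxia 1 to 3, and 2 with low Ddx3y as a covariate. In hypoxia 6 were called, 3 to 7 when a library was left out (3 without Flox hypoxia 4), and 3 without KO hypoxia 1 to 3, of which 2 were shared. For KO hypoxia against KO normoxia 7 were called, 3 without a filter on low counts, 3 in a fit of the 2 groups alone, 3 without KO hypoxia 1 to 3, and 3 to 9 when a library was left out. The count was 3 without KO normoxia 2, KO hypoxia 3 or KO hypoxia 6, and 4 without KO normoxia 1, 3 or 4, Flox normoxia 2 or 4, or KO hypoxia 2. With a replicate block it was 0, when 1 gene of all was called. In this comparison same-numbered libraries did not all deviate together (lowest correlation -0.39), nor in KO against Flox normoxia (-0.076) or the Flox oxygen comparison (-0.015). DESeq2 called 6, 7 and 9 members in these 3 comparisons. No member was called for oxygen in Flox libraries or for the interaction under any alternative run. For oxygen in Flox libraries the replicate block compares only the numbers 3 and 4, so the lack of calls in that fit decides nothing. Low counts limit the mitotic genes. The causes were not tested, except that a fit of fewer libraries has fewer degrees of freedom.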
